A study of Mus musculus with 8 samples.

Results

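Loss of the forkhead transcription factor FoxO3 was compared between 2 sets of mouse neurosphere arrays, to find genes whose FoxO3 null minus wild type difference in set 2 departed from that in set 1. All 8 arrays of the series entered, with 2 arrays for each set and genotype. The departure, called the interaction here, is the null minus wild type difference of set 2 minus that of set 1, on the log2 scale. It was tested with limma over 45037 probe sets (groups of short probes that each read 1 stretch of transcript), and 31 passed at a Benjamini-Hochberg adjusted p under 0.05 (0.0688%). Of these, 28 read autosomal genes with 1 symbol, out of 33584 such probe sets, and they stand for 26 genes on 14 chromosomes. The other 3 carried no single gene symbol and so were given no position, and no probe set placed on X or Y passed.

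The cells were secondary neurospheres, free-floating spheres of neural stem and progenitor cells, grown from forebrains of FVB/N mice that were FoxO3+/+ (wild type) or FoxO3-/- (null). All 4 groups had the same medium, with EGF and bFGF at 20 ng/ml each, and spheres were taken 6 days after plating 50000 cells/ml. RNA of each sample was hybridised to 1 Affymetrix Mouse430_2 array. The labels number the arrays as sets 1 and 2 without saying what a set is, and give no age of the mice. Nor do they tell whether the 2 arrays of a group are separate cultures or animals, so the p-values rest on the spread among arrays alone, and that spread may be technical.

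FoxO factors are held outside the nucleus when insulin or growth factor signalling through Akt phosphorylates them, and enter it when that signal falls. In adult neural stem cells FoxO3 is known for keeping the cells quiescent and for preserving their capacity to renew. Neurospheres hold stem cells beside progenitors on the way to neurons, astrocytes and oligodendrocytes, so the makeup of a culture shows in its RNA.

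The deleted gene was lower in null cells in both sets at its 2 brighter probe sets. Foxo3 (chr10:42181845-42276695, GRCm38.p6) had a null minus wild type difference of -1.27 in set 1 and -1.06 in set 2 at probe set 1434831_a_at (log2), and its interaction of 0.21 did not pass (adjusted p = 0.848). Probe set 1434832_at had differences of -1.32 and -0.81 and an interaction of 0.51 (adjusted p = 0.339). The dim probe set 1450236_at read higher in null, by 0.18 in set 1 and 0.48 in set 2, neither of which passed (adjusted p = 0.672 and 0.0665), with an interaction of 0.29. The stem cell markers Nes and Sox2 were bright on every array, at 10.67 to 11.26 and 12.46 to 13.19 (log2), against array medians of 6.27 to 6.31. Sex-linked RNA moved with both set and genotype. The mean of 3 Y-linked genes was 8.18 to 8.35 in wild type set 1, 7.90 to 8.09 in null set 1, 7.66 to 7.80 in wild type set 2 and 6.88 to 7.10 in null set 2, while Xist ran the other way, from 10.69 in wild type set 1 to 12.62 in null set 2. As a sign of RNA quality, the actin controls read higher at the 3' end than at the 5' end, and that gap was 0.466 to 0.545 in set 1 and 0.330 to 0.390 in set 2. For the Gapdh controls the 3' minus 5' value was -0.102 to -0.0735 in set 1 and -0.115 to -0.0741 in set 2, so the sets overlapped there.

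The 26 genes divided evenly by direction. In 13 genes (15 probe sets) the interaction was positive, and in 13 genes (13 probe sets) negative; over the whole table, 0.0377% of probe sets passed with a positive and 0.0311% with a negative interaction. The size of the interaction among the 28 probe sets was 0.79 to 2.69, with a median of 1.22, against a median of 0.10 over all probe sets tested. The null minus wild type difference had opposite signs in the 2 sets for 20 probe sets, had the same sign and was larger in set 2 for 6, and had the same sign and was larger in set 1 for 2. Over all probe sets those shares were 44.4%, 30.7% and 25.0%. The 28 were picked for a large interaction, so its size and the excess of opposite signs follow in part from that choice. Signs were counted for small differences too, such as 0.02 in set 1 for Lgi1. Only 3 of the 28 passed in both sets with opposite signs.

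**Figure D1:**
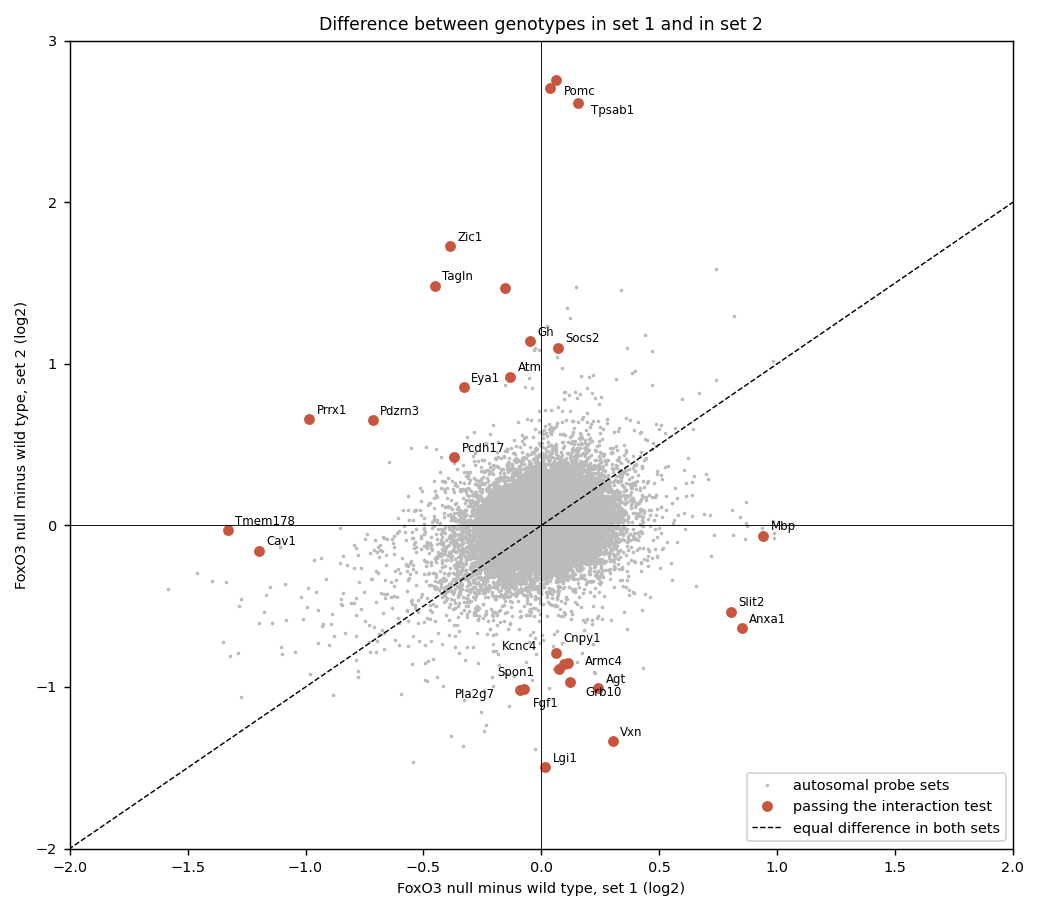
Each point is an autosomal probe set, with its FoxO3 null minus wild type difference (log2, 2 arrays a group) in set 1 across and in set 2 up; the 28 probe sets that passed the interaction test are in red and the dashed line marks an equal difference in both sets. Most red points lie near 0 across and far from 0 up, while Cav1, Tmem178 and Mbp lie near 0 up. Prrx1, Anxa1, Slit2 and Pdzrn3 are among those away from 0 on both axes.

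Most of the departures were differences of set 2. Within set 2 alone 25 of the 28 probe sets passed (0.91% of all probe sets did), and within set 1 alone 6 passed (0.284%). Only set 2 passed for 22, only set 1 for 3 (Cav1, Tmem178 and Mbp) and both sets for 3 (Prrx1, Anxa1 and Slit2). The 2 genotypes did not overlap in 26 of the 28 in set 2 and in 19 in set 1, where 41.9% and 38.4% of all probe sets did not. These within-set differences share their arrays with the interaction, so for its genes they describe where the departure lies and are no second piece of evidence.

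The number of passing probe sets depended on single arrays. It was 4 without wild type set 1 array 1, 5 without array 2, 7 without null set 1 array 1, 9 without array 2, 9 without null set 2 array 1 and 9 without wild type set 2 array 1; it was 29 without null set 2 array 2 and 21 without wild type set 2 array 2. With the mean of Y-linked genes as covariate, 4 probe sets passed, 3 of them among the 31, namely both Pomc probe sets and Tpsab1. That mean differed mostly between groups, so the fit could hardly separate it from set and genotype. What part sex-linked signal had in the lower count was not tested. Pomc, Vxn and Lgi1 passed with any 1 array left out; the other 27 probe sets lost their call without wild type set 1 array 1, and again without array 2. No probe set of the 31 changed sign under any setting tried in which it was measured.

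Pomc and Tpsab1 had the largest interactions of the 26 genes. Pomc, the precursor of ACTH and beta-endorphin (chr12:3954945-3960643), Tpsab1, a tryptase of mast cell granules (chr17:25343245-25345562), and Gh, growth hormone (chr11:106300261-106303703), with a smaller interaction, were highest on the null arrays of set 2. RefSeq (GRCm38.p6) gives the bases before the start site for 16 of the 26 genes. The sequence before Pomc, the gene of the largest interaction, is shown for the TATA box its start site carries, in capitals 25 bases before the start (chr12:3954695-3954944, plus strand).
Pomc: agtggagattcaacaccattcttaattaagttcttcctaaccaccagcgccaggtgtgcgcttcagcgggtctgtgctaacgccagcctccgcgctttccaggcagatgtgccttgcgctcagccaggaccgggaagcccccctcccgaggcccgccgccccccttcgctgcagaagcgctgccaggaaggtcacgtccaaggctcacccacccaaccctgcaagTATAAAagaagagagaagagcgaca

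Pomc (1433800_a_at) read 7.78 and 7.95 in wild type set 1, 7.87 and 7.93 in null set 1, 8.49 and 8.77 in wild type set 2, and 11.33 and 11.34 in null set 2 (log2). The null arrays of set 2 stood above all others and the genotypes of set 1 overlapped. The interaction was 2.67 ± 0.14 (SE, adjusted p = 0.000221 by limma), from a null minus wild type difference of 0.04 in set 1 and of 2.71, a 6.53-fold difference, in set 2. A second Pomc probe set, 1455858_x_at, gave an interaction of 2.69 ± 0.15. It read 5.88 to 6.00 on the arrays of set 1, 7.19 and 7.53 in wild type set 2 and 10.08 and 10.14 in null set 2, so wild type set 2 lay between set 1 and null set 2.

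Tpsab1 read 5.45 to 5.82 on the 4 arrays of set 1, 5.83 and 5.40 in wild type set 2, and 7.81 and 8.65 in null set 2. The null arrays of set 2 were the only high ones, and they differed from each other by more than any other pair. The interaction was 2.46 ± 0.33 (adjusted p = 0.0399), just inside the threshold. Gh (1460613_x_at) was dimmer, at 5.65 to 5.79 in set 1, 5.53 and 5.49 in wild type set 2 and 6.74 and 6.56 in null set 2. Its interaction was 1.19 ± 0.12 (adjusted p = 0.0144), and the other 3 Gh probe sets gave 0.56 to 0.89, none of which passed. In bulk RNA, fewer cells of a type and less RNA per cell cannot be told apart. Pcdh17, a protocadherin, had the smallest interaction of all, 0.79, and is named after its values were seen, as is Cnpy1 below.

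Lists of pituitary and mast cell genes were made after Pomc, Gh and Tpsab1 had been seen, so counts and means that hold these 3 restate them, and the other genes named from the lists were also chosen after their values were seen. Of the 14 pituitary genes measured besides Pomc and Gh, Prl and Scg2 passed the null minus wild type test in set 2, both higher in null, where 0.456% of all genes passed in that direction. Prl, prolactin, read 6.05 and 5.84, 6.52 and 6.85, 7.02 and 7.08, and 8.39 and 8.87 in wild type set 1, null set 1, wild type set 2 and null set 2. It was higher in null set 2 by 1.58 (adjusted p = 0.00266), but its interaction of 0.84 did not pass (adjusted p = 0.354). The pituitary transcription factors Pitx1, Tbx19 and Lhx3 had null minus wild type differences in set 2 of -0.01, -0.21 and -0.24, and those of the gonadotropin and thyrotropin subunits Lhb, Fshb and Tshb were -0.24, 0.01 and 0.02. The mean of the 14 genes was 5.84 to 5.98 on the other 6 arrays and 5.95 and 6.08 in null set 2, so 1 of the 2 null arrays of set 2 lay within the range of the others. With Pomc and Gh it was 6.04 to 6.13, and 6.38 and 6.49.

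Of the 9 mast cell genes besides Tpsab1, Cpa3, a mast cell carboxypeptidase, was the one that passed in set 2. It read 4.81 to 5.06 on the other 6 arrays and 6.15 and 6.81 in null set 2, and its interaction was 1.33 (adjusted p = 0.144). The proteases Cma1 and Mcpt4 had interactions of 1.16 and 0.58, with null set 2 readings of 5.79 and 6.77, and of 5.32 and 5.66. Receptors of the mast cell, Kit, Ms4a2 and Fcer1a, gave interactions of 0.22, 0.28 and -0.08. The mean of the 9 genes was 5.39 to 5.62 on the other 6 arrays and 5.77 and 6.06 in null set 2, and with Tpsab1 it was 5.43 to 5.62, and 5.97 and 6.32. The part of other cells in these results was not tested.

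**Figure D2:**
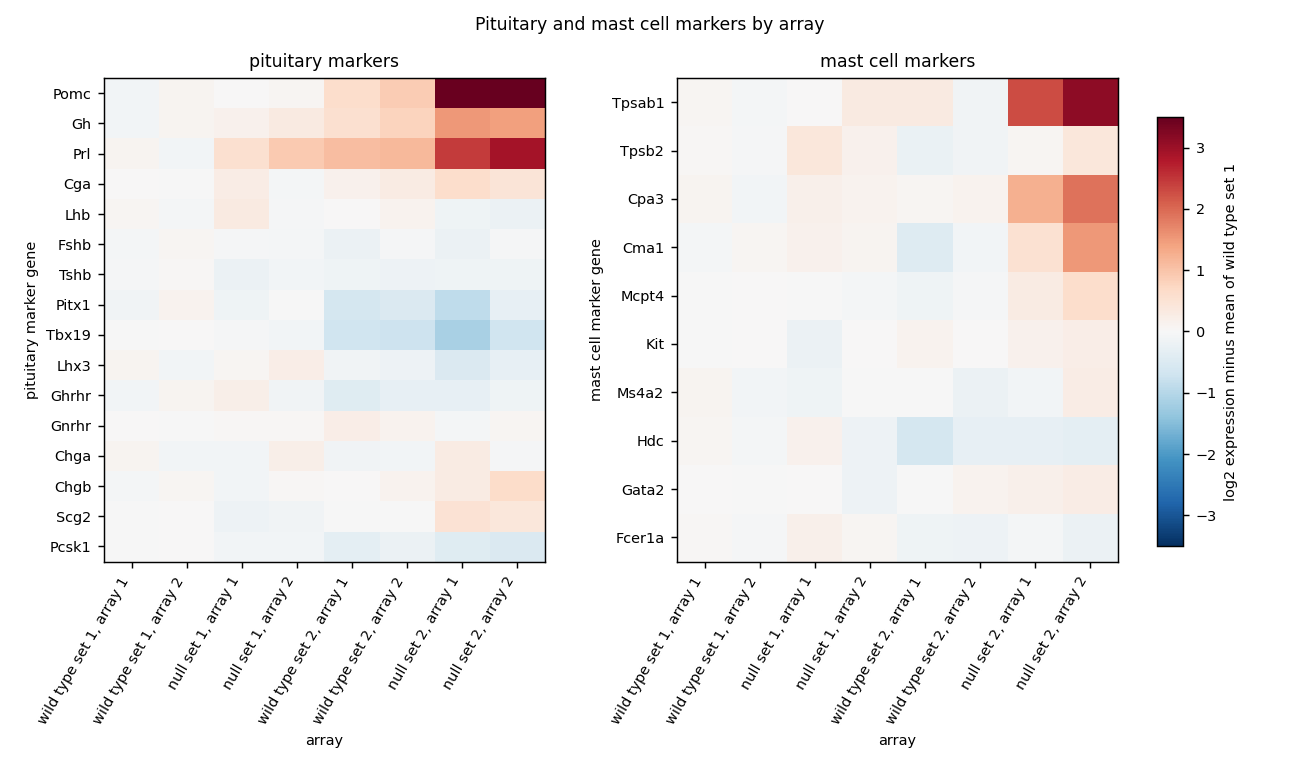
Colour gives log2 expression minus the mean of the 2 wild type set 1 arrays, for 16 pituitary (left) and 10 mast cell (right) genes in rows and the 8 arrays in columns, each gene by its brightest probe set. Pomc, Prl and Gh at left and Tpsab1, Cpa3 and Cma1 at right are strongest on the 2 null arrays of set 2, while most other genes stay near 0.

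In a second group wild type set 2 was lowest and lay farthest from the other 3 groups. It held Zic1, a zinc finger factor of the dorsal neural tube and meninges (chr9:91358058-91365768), Tagln, the actin-binding protein transgelin of smooth muscle (chr9:45929628-45936058), Eya1, a phosphatase and transcriptional coactivator, Atm, the kinase that answers DNA breaks, and Socs2, an inhibitor of growth hormone and cytokine signalling. Zic1 (1439627_at) read 9.36 and 9.26 in wild type set 1, 8.88 and 8.97 in null set 1, 7.06 and 6.57 in wild type set 2, and 8.51 and 8.58 in null set 2. Wild type was below null in set 2. It was above null in set 1, but that difference did not pass (adjusted p = 0.425 by limma). The groups did not overlap in either set, as held for 38.4% of all probe sets in set 1 and 41.9% in set 2. The interaction was 2.11 ± 0.19 (adjusted p = 0.00707) with null minus wild type of -0.39 in set 1 and 1.73 in set 2. The brighter probe set 1423477_at gave 1.62 ± 0.22, and its set 1 difference of -0.15 did not pass either (adjusted p = 0.872).

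Tagln read 10.16 and 10.15 in wild type set 1, 9.70 and 9.70 in null set 1, 8.27 and 8.72 in wild type set 2, and 10.16 and 9.80 in null set 2. Null set 2 stood with set 1 and wild type set 2 lay below the rest. The interaction was 1.93 ± 0.21 (adjusted p = 0.0146), with differences of -0.45 in set 1 and 1.48 in set 2. Eya1 gave 1.18 ± 0.15, Atm 1.05 ± 0.13 and Socs2 1.03 ± 0.12, with wild type set 2 readings of 7.81 and 7.96, of 7.31 and 7.37, and of 5.49 and 5.50. In Atm and Eya1 null cells were also lower in set 2 than in set 1, by less than wild type, with differences of -0.96 and -0.51 (adjusted p = 0.000162 and 0.00759). Socs2 moved both ways between sets, with a set 2 minus set 1 difference of -0.54 in wild type and 0.49 in null (adjusted p = 0.00212 and 0.00459). Null set 2, at 6.58 and 6.61, was its highest group. Atm's probe sets disagreed: 1421205_at gave the 1.05, while 1428830_at, of similar brightness, gave 0.23 (adjusted p = 0.778). The dimmer Eya1 probe sets 1421727_at and 1443117_at gave 0.58 and 0.35 and did not pass (adjusted p = 0.364 and 0.532 by limma). Socs2 lost its call when its brightest probe set stood for the gene.

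In the largest group, 10 genes with a negative interaction, wild type set 2 was highest and lay farthest from the other 3 groups. In 4 of them null cells too were higher in set 2 than in set 1, with differences of 0.91 in Agt, 0.64 in Pla2g7, 0.56 in Vxn and 0.47 in Armc4 (adjusted p = 0.000524, 0.00111, 0.00165 and 0.0036). Vxn, vexin (chr1:9601267-9627142), read 8.12 and 8.18 in wild type set 1, 8.47 and 8.44 in null set 1, 10.39 and 10.30 in wild type set 2, and 8.94 and 9.08 in null set 2. Wild type set 2 was the highest group. The interaction was -1.64 ± 0.11 (adjusted p = 0.0011), from differences of 0.30 in set 1 and -1.34 in set 2.

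Lgi1, a secreted protein of synapses whose gene is mutated in an inherited epilepsy (chr19:38264687-38308939), read 4.46 to 4.56 on the 4 arrays of set 1, 5.82 and 6.00 in wild type set 2, and 4.41 and 4.43 in null set 2. It was brighter in wild type set 2 than in any other group, and its interaction was -1.51 ± 0.12 (adjusted p = 0.00283). The brighter Lgi1 probe set 1435851_at gave -0.68, which did not pass (adjusted p = 0.391). Among the 19 promoters of the 16 genes, the 250 bases before its start were the only ones with the core ATAAACA that forkhead factors bind, on either strand, which 4.16% of 32851 promoters hold. The letters of the site named for FoxO, GTAAACA, were in 0 of the 19 (3.17% of all). TATAAA was in 5 of the 19, before Agt, Anxa1, Cav1, Pomc and Slit2 (12.4% of all). The match before Lgi1 is ATAAACA on the minus strand, which the printed plus strand shows as TGTTTAT, in capitals 138 bases before the start (chr19:38264437-38264686, plus strand); such a match is a description of the sequence only.
Lgi1: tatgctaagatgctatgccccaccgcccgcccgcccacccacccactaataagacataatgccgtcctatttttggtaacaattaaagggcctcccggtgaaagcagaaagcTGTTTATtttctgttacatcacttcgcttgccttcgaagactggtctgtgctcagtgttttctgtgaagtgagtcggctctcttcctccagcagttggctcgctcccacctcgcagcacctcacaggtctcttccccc

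Agt, angiotensinogen, which astrocytes secrete (chr8:124556587-124569706), read 8.85 and 8.96 in wild type set 1, 9.07 and 9.23 in null set 1, 11.09 and 11.04 in wild type set 2, and 9.91 and 10.20 in null set 2. Both genotypes were higher in set 2, wild type by more, and the interaction was -1.25 ± 0.15 (adjusted p = 0.0238). Grb10, an imprinted adaptor that dampens insulin receptor signalling, gave -1.09 ± 0.11, with 8.60 and 8.67 in wild type set 2 against 7.35 to 7.73 on the other 6 arrays.

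Spon1, the matrix protein F-spondin, gave -0.96 ± 0.10 and read 12.11 and 12.09 in wild type set 2 against 11.02 to 11.24 elsewhere. Fgf1, a fibroblast growth factor, gave -0.94 ± 0.11, and its brighter probe set 1423136_at -1.35, which did not pass (adjusted p = 0.0831). The brighter probe set had another shape: null set 2 was low, at 7.57 and 7.88, with a set 2 minus set 1 difference of -0.98, and the wild type difference of 0.37 did not pass (adjusted p = 0.0989). Kcnc4, a voltage-gated potassium channel, Pla2g7, a secreted phospholipase that breaks down platelet-activating factor, Armc4, a protein of motile cilia, and Cnpy1 gave -0.96, -0.93, -0.97 and -0.85. In each of these 4 genes the 2 wild type arrays of set 2 were the highest of the 8. The brighter Cnpy1 probe sets 1456127_at and 1455471_at gave -0.55 and -0.62 and did not pass (adjusted p = 0.289 and 0.549 by limma).

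**Figure D3:**
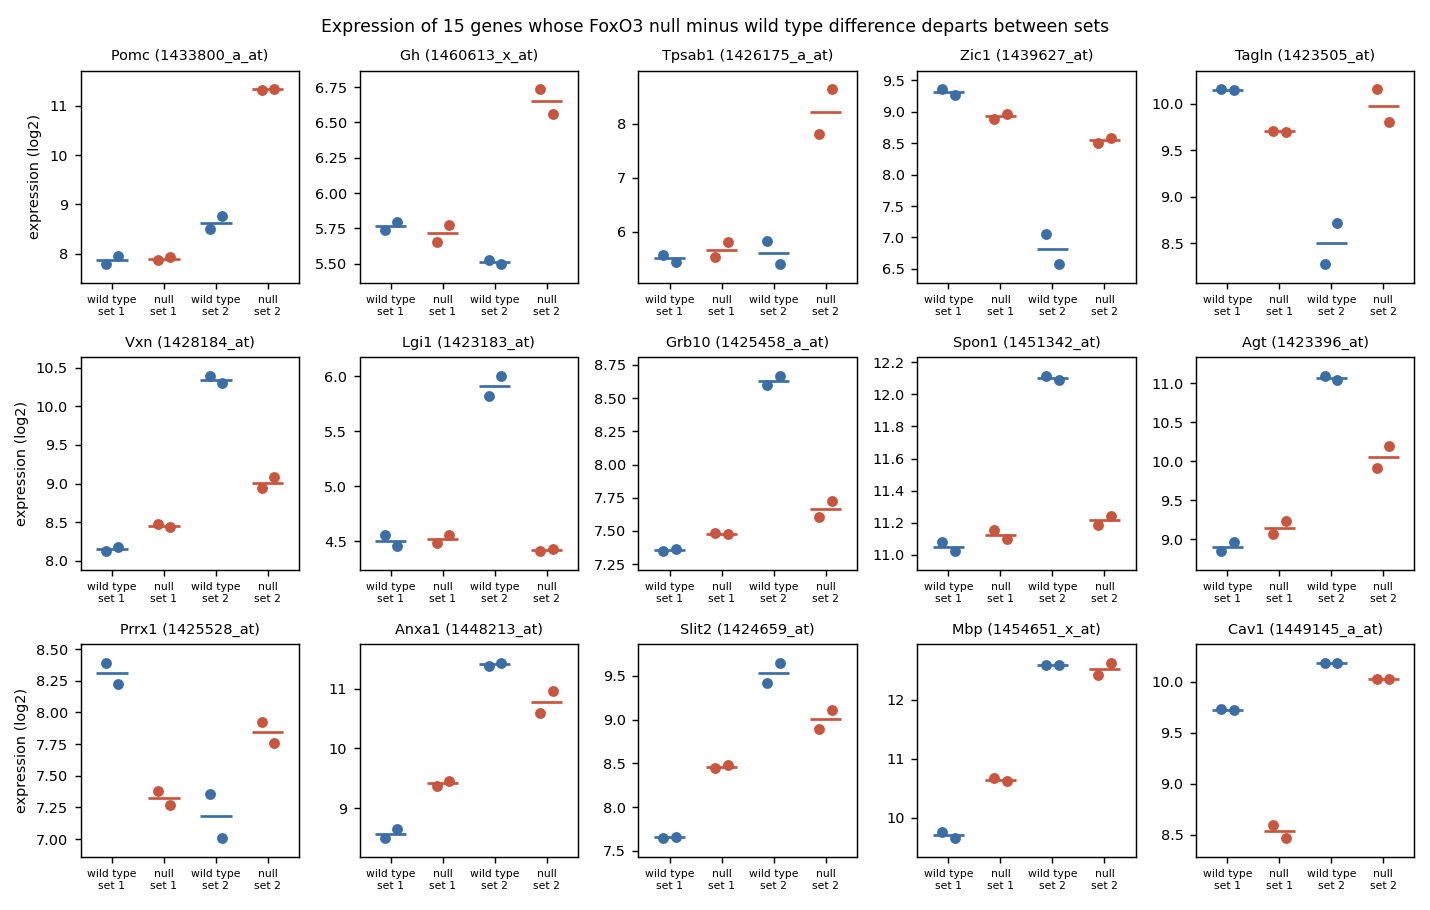
Each panel gives the log2 expression of 1 gene (probe set in brackets) on the 2 arrays of each group, with a line at the group mean; blue is wild type and red is FoxO3 null, and the vertical scale differs between panels. In the top row null set 2 is high (Pomc, Gh, Tpsab1) or wild type set 2 is low (Zic1, Tagln); in the middle row wild type set 2 is high; in the bottom row the genotypes differ in set 1.

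The remaining 7 genes stood out in set 1. Cav1, the coat protein of caveolae (chr6:17306335-17341328), read 9.73 and 9.72 in wild type set 1, 8.60 and 8.47 in null set 1, 10.18 and 10.19 in wild type set 2, and 10.03 and 10.03 in null set 2. Null set 1 was the lowest group. Null was lower than wild type by 2.29-fold in set 1 and by 1.11-fold in set 2, and the interaction was 1.04 ± 0.11 (adjusted p = 0.0144). Tmem178, a transmembrane protein, had a difference of -1.33 in set 1 and of -0.03 in set 2, with an interaction of 1.30 ± 0.17. Pdzrn3, a ubiquitin ligase, had an interaction of 1.36 ± 0.17. Its difference was -0.71 in set 1, which did not pass (adjusted p = 0.0514 by limma), and 0.65 in set 2, which did (adjusted p = 0.0422).

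Mbp, myelin basic protein, the main cytoplasmic protein of oligodendrocyte myelin (chr18:82475091-82585637), read 9.76 and 9.66 in wild type set 1, 10.67 and 10.63 in null set 1, 12.59 and 12.59 in wild type set 2, and 12.42 and 12.63 in null set 2 (1454651_x_at). Null exceeded wild type in set 1 by 0.94, and in set 2 the genotypes overlapped at the higher level. The interaction was -1.01 ± 0.12 (adjusted p = 0.0246). The other 5 bright Mbp probe sets gave -0.71 to -1.03 and did not pass (adjusted p from 0.0835 to 0.204).

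Prrx1, Anxa1 and Slit2 were the only probe sets of the table that passed in both sets with opposite signs; 35 others passed in both with the same sign. Calls in both sets were 29.7% of the 128 calls of set 1 and 9.27% of the 410 of set 2. Prrx1, a homeobox factor of mesenchyme (chr1:163245119-163315145), read 8.39 and 8.22 in wild type set 1, 7.38 and 7.27 in null set 1, 7.36 and 7.01 in wild type set 2, and 7.93 and 7.76 in null set 2. Null minus wild type was -0.98 in set 1 (adjusted p = 0.0136) and 0.66 in set 2 (adjusted p = 0.0427), with an interaction of 1.64 ± 0.17. The 128 calls of set 1 dropped to 0 without wild type set 1 array 1 (2791 at an unadjusted p under 0.05 in limma), 32 without array 2, 17 without null set 1 array 2, and 83 without either wild type set 2 array. The 410 calls of set 2 dropped to 67 and 146 without wild type set 2 arrays 1 and 2, to 96 and 128 without null set 2 arrays 1 and 2, and to 230 without either wild type set 1 array.

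Anxa1, annexin A1, a calcium-dependent membrane binding protein (chr19:20373434-20390671), went the other way. It read 8.50 and 8.64 in wild type set 1, 9.38 and 9.46 in null set 1, 11.38 and 11.44 in wild type set 2, and 10.59 and 10.96 in null set 2. Null minus wild type was 0.85 in set 1 and -0.63 in set 2, for an interaction of -1.48 ± 0.16 (adjusted p = 0.0153). Slit2, the secreted ligand of Robo receptors that repels axons (chr5:47981291-48307735), read 7.65 and 7.66, 8.44 and 8.48, 9.42 and 9.65, and 8.89 and 9.11 in the same order of groups. Null minus wild type was 0.81 in set 1 and -0.53 in set 2, with an interaction of -1.34 ± 0.14, and the genotypes overlapped in neither set for either gene.

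The same genes differed widely between sets in wild type cells alone. Of the 28 probe sets, 26 passed the set 2 minus set 1 test in wild type, where 23.8% of all probe sets passed, and 20 passed it in null, where 22% passed. The 2 without a wild type call were Tpsab1 and the passing Gh probe set. Without wild type set 2 array 1, or set 1 arrays 1 or 2, the wild type count of 10735 over the table was 5960, 6339 or 6040. All 13 negative probe sets were higher in set 2 wild type, by 0.58 (Cnpy1) to 2.88 (Mbp), and 11 of the 15 positive ones were lower, with the largest differences in Zic1 (-2.50) and Atm (-2.01).

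In 21 of the 28 the set difference was larger in wild type than in null, against 51.7% of all probe sets. Lgi1, for example, was 2.65-fold higher in set 2 in wild type and 1.08-fold lower in null. Spon1 was 2.07-fold higher in wild type and 1.06-fold higher in null. The other 7 went the other way, among them Pomc, Tpsab1, Gh and Cav1, with set differences in null of 3.43, 2.55, 0.94 and 1.49 against 0.76, 0.10, -0.25 and 0.46 in wild type. The wild type arrays are part of the interaction, so these values describe its genes and test nothing further.

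**Figure D4:**
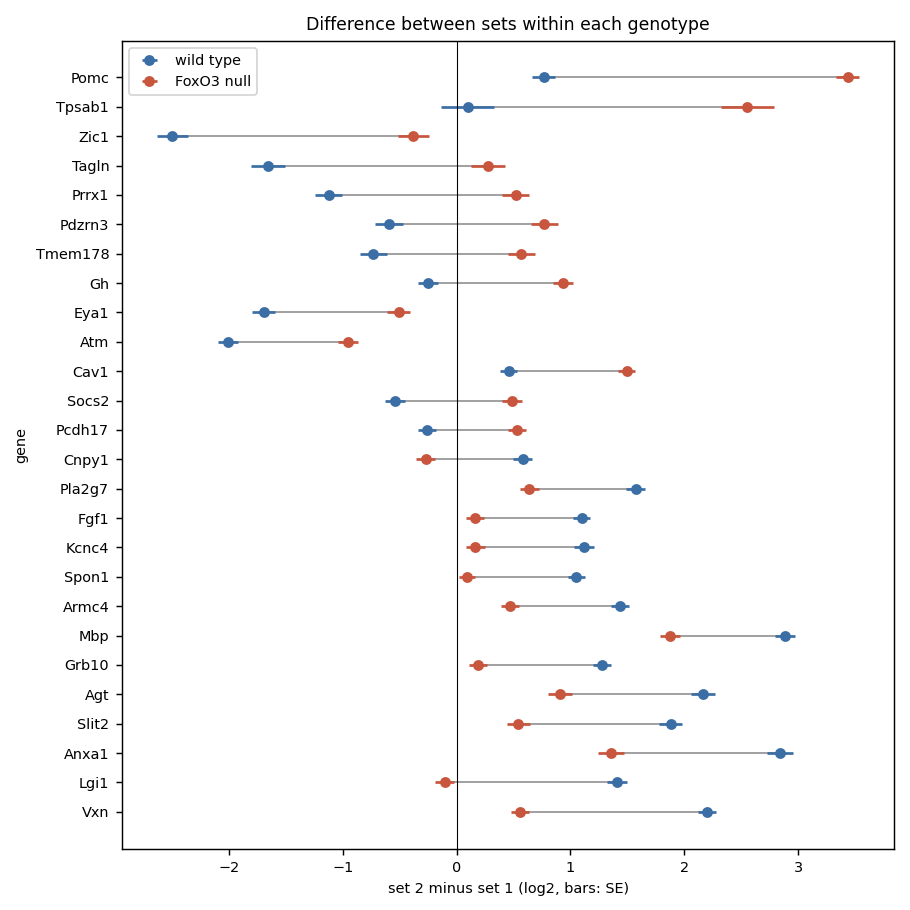
For each of the 26 genes, the points give the set 2 minus set 1 difference (log2) in wild type (blue) and in FoxO3 null (red), with the SE from the limma fit as bars, ordered by the interaction. In the lower 13 genes the blue point lies to the right of the red one and above 0; in the upper 13 it lies to the left.

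Sorted by which group lay farthest from the other 3, 15 of the 26 genes had wild type set 2 apart, 10 high and 5 low. Null set 2 stood apart in 4, wild type set 1 in 5 and null set 1 in 2. Over all probe sets tested those groups stood apart in 28.2%, 26.2%, 23.5% and 22.1%. The genes spanned mean levels of 4.58 to 11.4, and 7 of the 28 probe sets were dimmer than the median probe set of 6.28. Other probe sets of the same genes numbered 39 over 16 genes, and 34 had the sign of the passing one; of the 14 brighter than the median probe set, 14 had that sign and 10 were at least 50% as large.

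The genes given here from just outside the threshold were chosen after their values were seen. C1ql3, Ddo, Spock2 and Cpne7, with interactions of -0.89, -0.98, -0.77 and -1.04 (adjusted p = 0.0503 for C1ql3 and 0.0506 for the others), were highest in wild type set 2. Id4, an inhibitor of basic helix-loop-helix factors, read 7.54 and 7.93, 7.75 and 7.92, 7.32 and 7.48, and 8.75 and 8.74 in wild type set 1, null set 1, wild type set 2 and null set 2, and its interaction of 1.24 had an adjusted p of 0.0506. Just inside lay Tpsab1, Pcdh17 and Cnpy1, each at 0.0399.

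Few of the pathway and cell type lists held a passing gene. Each gene was read by its brightest probe set, for which 19 of 18193 genes passed (0.104%). Of 28 lists, 4 had such a gene, among them Zic1 in 35 forebrain patterning factors, Slit2 in 30 axon guidance genes, and Tagln and Anxa1, in opposite directions, in 23 YAP and SRF targets. The astrocyte list had Agt alone of 22 genes; in it 15 interactions were negative, with a median of -0.12, and 2 genes were called lower in null in set 1, while in set 2, 6 were called lower and 1, Id4, higher. Over all genes 0.33% were called lower in set 1, 0.731% lower in set 2 and 0.456% higher in set 2. Over all genes the median interaction was -0.01 and 47.9% were positive.

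Hypoxia and HIF targets had no passing gene (5 at an unadjusted p under 0.05 in limma), and 25 of 26 interactions were positive, with a median of 0.23. The median null minus wild type difference of the list was -0.63 in set 1 and -0.38 in set 2. In set 1, 7 of its genes passed, and in set 2, 2 did, all lower in null, where 0.33% and 0.731% of all genes were called lower. Egln3, an oxygen sensor, had a difference of -0.86 in set 1 and -0.01 in set 2, and an interaction of 0.84 (adjusted p = 0.264). Cholesterol synthesis genes were positive in 19 of 21, with a median null minus wild type of -0.09 in set 1 and 0.12 in set 2. Genes of G1/S and of G2/M were positive in 24 of 30 and 27 of 29, with medians of 0.14 and 0.11; their median set 2 minus set 1 differences in wild type were -0.34 and -0.40.

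The oligodendrocyte list, which holds Mbp through a probe set that did not pass, had a median interaction of -0.15, and 17 of 24 were negative. In wild type its genes were higher in set 2 by a median of 0.96, with 18 of 24 called and all 18 higher, where 26.5% of all genes were called and 14.9% called higher. In null the list was higher in set 2 by a median of 1.06. Mal and Mag, proteins of myelin chosen after their values were seen, had interactions of -0.95 and -0.87 (adjusted p = 0.204 and 0.357). Null minus wild type of Mal was 0.86 in set 1 and -0.09 in set 2, and its level in wild type was 3.41 higher in set 2. FoxO targets and insulin signalling genes had nearly equal medians in the sets, -0.14 and -0.13, and none of 33 passed the interaction (2 at an unadjusted p under 0.05 in limma).

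**Figure D5:**
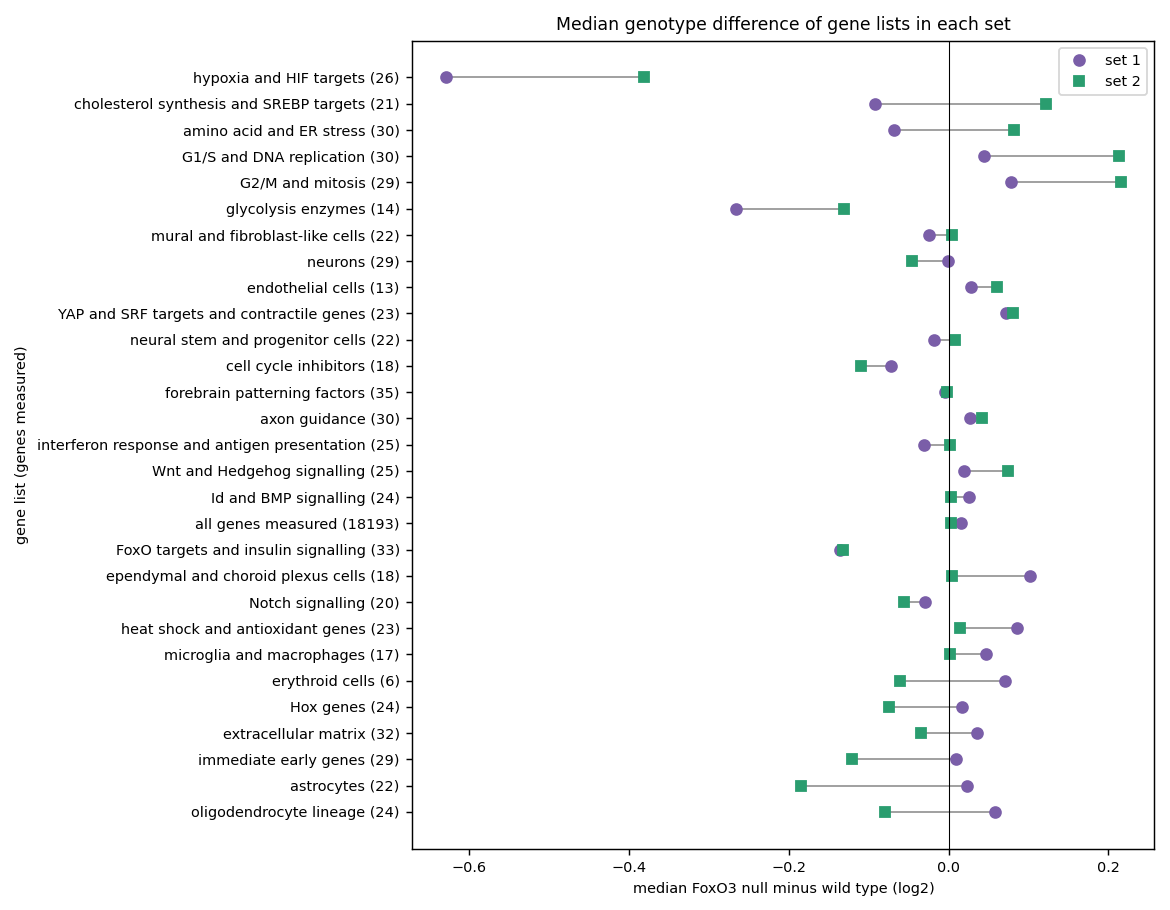
Points give the median FoxO3 null minus wild type difference (log2) of each gene list in set 1 (violet circles) and set 2 (green squares), with the number of genes measured in brackets, ordered by the median interaction. Hypoxia and HIF targets lie farthest left in both sets, at -0.63 and -0.38, and the astrocyte and oligodendrocyte lists lie further left in set 2 than in set 1.

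The 3 passing probe sets without a single gene symbol in the annotation completed the 31. Probe set 1427820_at was highest in null set 2 (interaction 1.12), 1452452_at lowest in null set 2 (-0.90) and 1423424_at lowest in wild type set 2 (1.37).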

How the data were processed

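Neurosphere RNA was read on 8 Affymetrix Mouse430_2 arrays, grouped by genotype and set from their titles. The deposited table holds log2 expression values that the authors made with RMA (background subtraction, quantile normalization and summary of each probe set's probes), per the submitters' processing notes. Its version, and whether all arrays were processed together, are not given in the sources used here. RMA compresses differences of dim probe sets, and every value is relative to the other genes of its array.

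Of 45101 probe sets, 64 controls were left out. The platform annotation gave 34945 probe sets 1 symbol, 932 several and 9160 none; positions are from RefSeq (GRCm38.p6). Interaction, within-set and between-set differences were tested two-sided in limma 3.58.1 (R 4.3.3) with 1 mean per group, moderated variance and Benjamini-Hochberg adjustment over 45037 probe sets, with no limit on fold. At gene level the brightest probe set stood for a gene. The script was tested on simulated arrays. Arrays have no read depth, and 2 arrays per group limit precision. With the 2 arrays of a group averaged, no residual freedom is left, so no fit that treats them as technical repeats can be made. The lowest correlation between arrays of a group was 0.9975, the highest between groups 0.9973, and no columns were identical.

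Named genes were the 12 largest positive and 12 largest negative interactions among passing autosomal genes, those passing in both sets with opposite signs, members of gene lists that passed or else had the smallest p, and every Foxo3 probe set; any other gene with values was chosen after its values were seen, apart from Nes, Sox2 and the sex-linked genes, which check the samples. The members and the 28 gene lists (664 of 707 entries measured) were chosen with earlier results of these data known. Alternatives covered normalization, centring, dim probe sets, the variance model, sex-linked signal, replicate number, thresholds and leaving out each array.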

Additional observations from a re-analysis of the deposited data

Results flagged for a closer look

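The null minus wild type differences of sets 1 and 2 differed, by the limma test of the difference itself, for each gene the report names as passing; the values here are set 2 minus set 1 on the log2 scale. Positive were Pomc at 2.67, Tpsab1 at 2.46, Zic1 at 2.11 and, with its second probe set, 1.62, and Tagln at 1.93. Smaller positive values belonged to Prrx1 (1.64), Pdzrn3 (1.36), Tmem178 (1.30), Gh (1.19), Eya1 (1.18), Atm (1.05), Cav1 (1.04), Socs2 (1.03) and Pcdh17 (0.79). Negative were Vxn at -1.64, Lgi1 at -1.51, Anxa1 at -1.48, Slit2 at -1.34 and Agt at -1.25. Smaller negative values belonged to Grb10 (-1.09), Mbp (-1.01), Armc4 (-0.97), Spon1 (-0.96), Kcnc4 (-0.96), Fgf1 (-0.94), Pla2g7 (-0.93) and Cnpy1 (-0.85). Groups of 2 arrays are too small to look for a single outlying array.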

How the results depend on the processing

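No reported interaction changed sign, but the number passing moved. Against 31 as reported, 8 passed with the replicate number as a block, all among the 31, and 4 with the mean of Y-linked genes as covariate. With a variance trend 150 passed, the 31 among them, and without variance moderation 0 did (3079 at an unadjusted p under 0.05 in limma). At an adjusted p under 0.01 there were 5, and under 0.10, a threshold added after seeing the data, 52. Leaving out each array in turn gave 4 to 29. Renormalizing, centring, array weights, a level filter, autosomes alone and 1 probe set a gene gave 26 to 39. The replicate numbers did not pair the arrays: deviations of same-numbered arrays correlated at 0.0739 in set 1 and -0.0582 in set 2.

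The block gave 241 calls in set 2 in place of 410. The Y-linked covariate gave 14 calls in set 1, 0 in set 2 (2901 unadjusted in limma) and 1670 between wild type sets. As said above, this covariate differed mostly between groups and could hardly be separated from set and genotype. The variance trend gave 444 in set 1 and 965 in set 2. Without moderation there were 0 in set 1 (3544 unadjusted in limma), 1 in set 2 and 4809 between wild type sets; 1 probe set a gene gave 5463 of the last. Leaving out arrays gave 0 to 91 in set 1 (2791 unadjusted in limma where 0), 67 to 339 in set 2 and 5960 to 10483 between wild type sets.

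Of 18 refits, Pomc lost its call in 1, Vxn in 2, Lgi1 in 3, Zic1 in 4 and the other named genes in 7 to 12; Id4 passed in 5. Tubb3, which did not pass, turned to -0.0725 with the Y-linked covariate. The causes were not tested. Dim probe sets, close to background, limit what can be said of Lgi1, Cnpy1, Armc4, Pdzrn3, Gh, Socs2 and Tpsab1, which lay below the median level.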
